A study of Mus musculus with 4 samples.

Results

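The JAK-STAT feedback genes described here are 10 mouse genes, matched by symbol in the deposited expression tables, which list 23284 genes. They are the inhibitors Cish, Socs1, Socs2 and Socs3, the kinases Pim1, Pim2 and Pim3, and the transcription factors Stat3, Stat5a and Stat5b. All 10 were found, and all 10 had a value above 0 in every library. RNA-seq had been done on EGFP+ cells sorted from bone marrow 24 h after a transplant. The donors were CAG-EGFP mice, in which the ubiquitous CAG promoter drives EGFP, and the cells injected were LSK cells (Lin- Sca1+ c-Kit+), the marrow fraction that holds stem and multipotent progenitor cells. The 5-FU group had 2 wild-type (WT) recipients given 5-fluorouracil (5-FU), a pyrimidine analog that kills dividing cells, intravenously at 200 mg/kg 2 days before the transplant. The control group had 2 WT recipients with no conditioning. Donor genotype, donor sort and the time of 24 h were the same in both groups, and the labels name no strain, age or sex of the mice. The comparison asks how the transferred cells' transcripts differ between a 5-FU-conditioned and a steady-state marrow.

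Cytokine receptors without a kinase of their own use JAK kinases, which phosphorylate STAT proteins. Phosphorylated STATs pair, enter the nucleus and bind sites of the form TTCNNNGAA near their target genes. Among those targets are the genes of CIS and the SOCS proteins, which bind receptors or JAKs and damp the signal, and the PIM genes, whose kinases are active once made and so are set largely by transcript and protein level. In blood progenitors STAT5 carries signals of interleukin-3, GM-CSF, thrombopoietin and erythropoietin, and STAT3 those of the interleukin-6 family and G-CSF.

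Values are FPKM, reads scaled by transcript length and library size, so levels of different genes may be set side by side within a library. Summed over all genes, FPKM came to 678270 and 762107 in 5-FU recipients 1 and 2. The sums were 680412 and 678222 in control recipients 1 and 2, so 5-FU recipient 2 had the highest total. Depth is not stated, and steps between low values point to roughly 6.5 to 8.5 M reads per library (M stands for mega). The labelled stem and progenitor identity was only part of the content. The summed FPKM of 15 stem and progenitor markers was 819 and 1083 in 5-FU recipients 1 and 2, against 964 and 872 in control recipients 1 and 2. The sum over 17 macrophage markers was 18037 and 10649 FPKM in 5-FU recipients, against 22641 and 25005 FPKM in control recipients. Control recipient 1 stood apart in basophil and mast cell markers, whose sum was 39.8 and 78.6 FPKM in 5-FU recipients, against 477 and 40.9 FPKM in control recipients. In bulk libraries such as these, fewer cells of a type and less RNA per cell cannot be told apart.

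Cish, which encodes the inhibitor CIS, was the member that passed the test, and it was higher in cells from 5-FU recipients. Stat3 was the most abundant member and Socs3 the least abundant in each of the 4 libraries. Stat3 had 22.3 to 34.3 FPKM over all libraries and Stat5b, the next by group mean, 13.2 to 20.6 FPKM, so these ranges did not overlap. By group mean, Socs2, Pim3 and Stat5a came after Stat5b in both groups, and the libraries of these 3 genes overlapped with one another. Cish ranked 6 and 5 of 10 in 5-FU recipients 1 and 2, against 8 and 9 of 10 in control recipients 1 and 2. Pim1, the least abundant of the kinase genes, had 2.76 to 4.05 FPKM and was separated from Socs3, at 0.149 to 0.879 FPKM. The plot of the 10 members by library shows these levels.

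**Figure D1:**
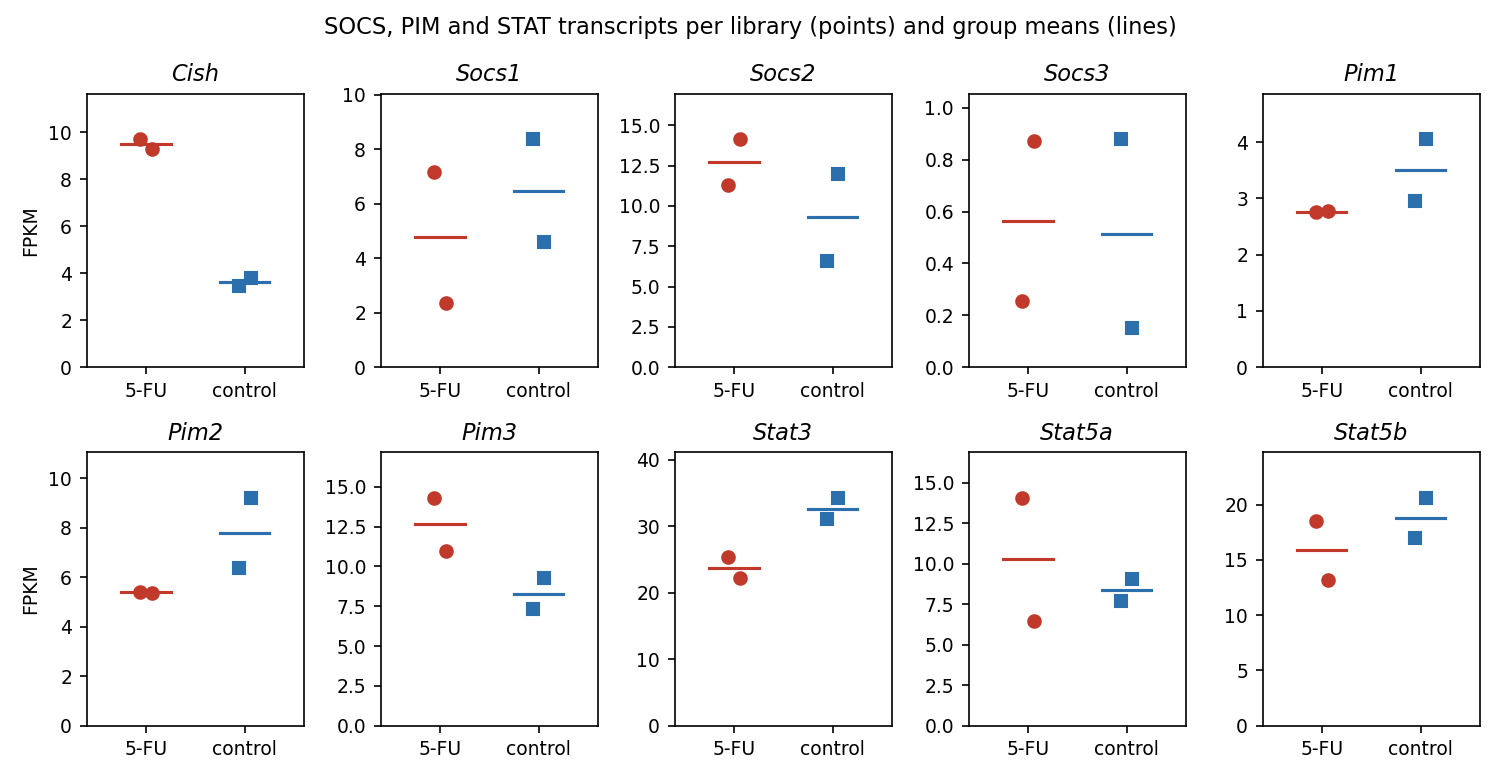
FPKM of each member (vertical axis, from 0, with its own scale per panel) in the 5-FU libraries (circles) and control libraries (squares), with group means as lines. Cish has 9.71 and 9.28 FPKM in 5-FU libraries, above its 3.47 and 3.78 FPKM in control libraries, while Socs1, Socs2, Socs3, Stat5a and Stat5b overlap between groups.

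Cish lies on chromosome 9 at 107296026 to 107302784, plus strand (coordinates of genes are GENCODE M21, GRCm38). CIS binds the phosphorylated tails of receptors such as those of erythropoietin and interleukin-3, and its gene is a widely used readout of STAT5 activity. It had 9.71 and 9.28 FPKM in 5-FU recipients 1 and 2, against 3.47 and 3.78 FPKM in control recipients 1 and 2. Both 5-FU libraries lay above both control libraries, and the lowest 5-FU value was 2.45 times the highest control value. The means were 9.50 ± 0.306 FPKM in 5-FU recipients and 3.62 ± 0.224 FPKM in control recipients (SD, n = 2 each). The log2 fold change was 1.18 (SE 0.27, 95% interval 0.56 to 1.80, limma adjusted p = 0.030), on the log2(FPKM + 1) scale, which understates changes of low genes. This fold change was above that of 94.95% of all tested genes, and Cish ranked 924 of 11496 genes by p. Roughly 220 and 220 reads stood behind the value in 5-FU recipients, against 63 and 71 reads in control recipients. The adjusted p was 0.20 without control replicate 1, 0.18 without control replicate 2 and 0.11 with no filter on low values, at log2 fold changes of 1.13, 1.23 and 1.18. Of its exonic bases, 11.5% overlap the opposite-strand gene models Gm17040 and Gm17041, and reads of the 2 strands cannot be told apart without strand information.

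The windows around the RefSeq transcription starts are shown for Cish, which passed the test, for Socs3, the other member with a TTCNNNGAA match, and for Pim3, whose fold change was next in size to that of Cish and which has no match. Each gives the 250 bases before the start (GRCm38.p6, RefSeq, on the gene's own strand, 5′ to 3′), and for Cish also 26 bases after it, with matches in capitals.
Cish, chr9:107296409-107296684, plus strand: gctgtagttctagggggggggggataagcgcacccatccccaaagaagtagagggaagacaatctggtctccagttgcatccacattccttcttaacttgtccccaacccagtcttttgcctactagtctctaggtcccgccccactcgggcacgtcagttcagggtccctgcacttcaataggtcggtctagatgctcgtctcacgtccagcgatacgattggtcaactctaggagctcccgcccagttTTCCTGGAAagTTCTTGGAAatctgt
Socs3, chr11:117969367-117969616, minus strand: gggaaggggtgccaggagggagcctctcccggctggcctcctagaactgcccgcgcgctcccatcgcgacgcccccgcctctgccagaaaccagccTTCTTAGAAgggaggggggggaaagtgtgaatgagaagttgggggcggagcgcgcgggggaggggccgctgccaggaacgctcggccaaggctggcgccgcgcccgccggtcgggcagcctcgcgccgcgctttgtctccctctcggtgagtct
Pim3, chr15:88861944-88862193, plus strand: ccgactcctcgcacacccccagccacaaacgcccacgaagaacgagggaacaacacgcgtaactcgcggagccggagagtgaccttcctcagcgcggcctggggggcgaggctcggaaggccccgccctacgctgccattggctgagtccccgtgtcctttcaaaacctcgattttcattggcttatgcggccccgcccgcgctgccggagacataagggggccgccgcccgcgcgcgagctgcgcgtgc
The matches in the Cish window are TTCCTGGAA and TTCTTGGAA, at positions 1 and 12 counted from the start as 1, so 11 bp apart. The match in the Socs3 window is TTCTTAGAA, with its first base 154 bases before the start. The motif TTCNNNGAA reads the same on both strands. Over all RefSeq windows (250 bases before and 50 after a start), 8.30% of 32851 hold at least 1 match and 0.457% hold 2 or more. Windows were found for 9 of the 10 members, 12 windows in all because Pim1, Stat5a and Stat5b have more than 1 start, and 2 windows held the motif. Socs2 had no window. The same flanking letters with 4 bases between them were in none of the 12 windows, against 6.95% of all windows. A match is a run of letters and says nothing of binding in these cells.

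The other inhibitors did not pass the test. Socs2 (chromosome 10 at 95385362 to 95417180) encodes the protein that limits growth hormone signalling. It had 11.3 and 14.1 FPKM in 5-FU recipients 1 and 2, against 6.55 and 12.0 FPKM in control recipients 1 and 2. The groups overlapped, because control recipient 2 exceeded 5-FU recipient 1. The log2 fold change of Socs2 was 0.46 (95% interval -0.28 to 1.20, adjusted p = 0.36). It was 0.07 without control replicate 1 and 0.85 without control replicate 2. Socs1 (chromosome 16 at 10782240 to 10785536) encodes a direct inhibitor of JAK kinases, best known for restraining interferon-γ signalling. Socs1 had 7.17 and 2.36 FPKM in 5-FU recipients, against 8.37 and 4.58 FPKM in control recipients. In each group the first recipient was the higher one, by 3.03 times among 5-FU recipients and 1.83 times among control recipients. Its log2 fold change was -0.46 (95% interval -1.55 to 0.62, adjusted p = 0.54) and 0.18 without 5-FU replicate 2. The interval of Socs1 thus holds changes of either sign.

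Socs3 (chromosome 11 at 117966079 to 117970047) encodes the inhibitor of receptors that contain gp130 and of the G-CSF receptor. It had 0.254 and 0.871 FPKM in 5-FU recipients, against 0.879 and 0.149 FPKM in control recipients. Each group held 1 library near 0.9 FPKM and 1 well below it, so the groups overlapped fully. Socs3 was under 1 FPKM in each library and was not tested. These values rest on roughly 5.1 and 19 reads in 5-FU recipients, against 15 and 2.6 reads in control recipients. The FPKM values differed 3.43 times among 5-FU recipients and 5.89 times among control recipients. A difference between groups within that spread could not be told. Genes of dissociation and handling, which respond to tissue processing as Socs3 can, summed to 893 and 686 FPKM in 5-FU recipients, against 1941 and 1879 FPKM in control recipients. The part of handling in the Socs3 values was not tested.

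Within the 4 inhibitor genes the share of Cish did not overlap between the groups. Cish made up 34.2% and 34.8% of their summed FPKM in 5-FU recipients 1 and 2, against 18.0% and 18.4% in control recipients 1 and 2. The share of Socs2 was 39.7% and 53.0% in 5-FU recipients, against 34.0% and 58.5% in control recipients, and so overlapped. The sum of the 4 genes was 28.4 and 26.7 FPKM in 5-FU recipients, against 19.3 and 20.5 FPKM in control recipients. Shares and ratios inside a library do not depend on the scaling between libraries. They were chosen after the values were seen, so they are given as a description with no test. Among all tested genes, 31.4% had both 5-FU libraries above both control libraries and 30.7% had both below. Those percentages are for FPKM of single genes, and how often shares within a family separate was not computed.

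None of the PIM kinase genes passed the test, and their fold changes had both signs. Pim3 (chromosome 15 at 88862186 to 88865726) had 14.3 and 10.9 FPKM in 5-FU recipients 1 and 2, against 7.30 and 9.29 FPKM in control recipients 1 and 2. Both 5-FU libraries were the higher ones, with the closest pair 1.18 times apart. The log2 fold change of Pim3 was 0.55 (95% interval -0.07 to 1.17, adjusted p = 0.21). Pim2 (chromosome X at 7878262 to 7883432), a gene of survival signalling in lymphoid and myeloid cells, had 5.41 and 5.38 FPKM in 5-FU recipients, against 6.39 and 9.22 FPKM in control recipients. Pim1 (chromosome 17 at 29490753 to 29496112), the founding member and a target of both STAT3 and STAT5, had 2.76 and 2.77 FPKM in 5-FU recipients, against 2.95 and 4.05 FPKM in control recipients. For Pim1 and Pim2 the 5-FU libraries were nearly equal and lay below both control libraries, with control recipient 2 the highest. The log2 fold change was -0.44 for Pim2 (95% interval -1.11 to 0.23, adjusted p = 0.33). It was -0.25 for Pim1 (95% interval -0.95 to 0.46, adjusted p = 0.62). Without control replicate 2, the fold change was -0.07 for Pim1 and -0.21 for Pim2. Without control replicate 1 it was -0.42 for Pim1 and -0.68 for Pim2. For Pim1, 14.5% of exonic bases overlap the opposite-strand gene model Gm26885.

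The summed PIM transcript level overlapped between groups while its make-up did not. The sum was 22.5 and 19.1 FPKM in 5-FU recipients, against 16.6 and 22.6 FPKM in control recipients. Pim3 made up 63.7% and 57.3% of it in 5-FU recipients 1 and 2, against 43.9% and 41.2% in control recipients 1 and 2. The ratio of Pim3 to Pim2 was 2.65 and 2.03 in 5-FU recipients, against 1.14 and 1.01 in control recipients. Pim1 made up the smallest share in each library, 12.3% and 14.5% in 5-FU recipients and 17.7% and 18.0% in control recipients. The plot of family shares sets these side by side. The shares depend on one another, were chosen after the values were seen and were not tested. Over all tested genes, both 5-FU libraries lay above both control libraries for 31.4% and below both for 30.7%. That background is for FPKM of single genes, and none was computed for shares or ratios.

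**Figure D2:**
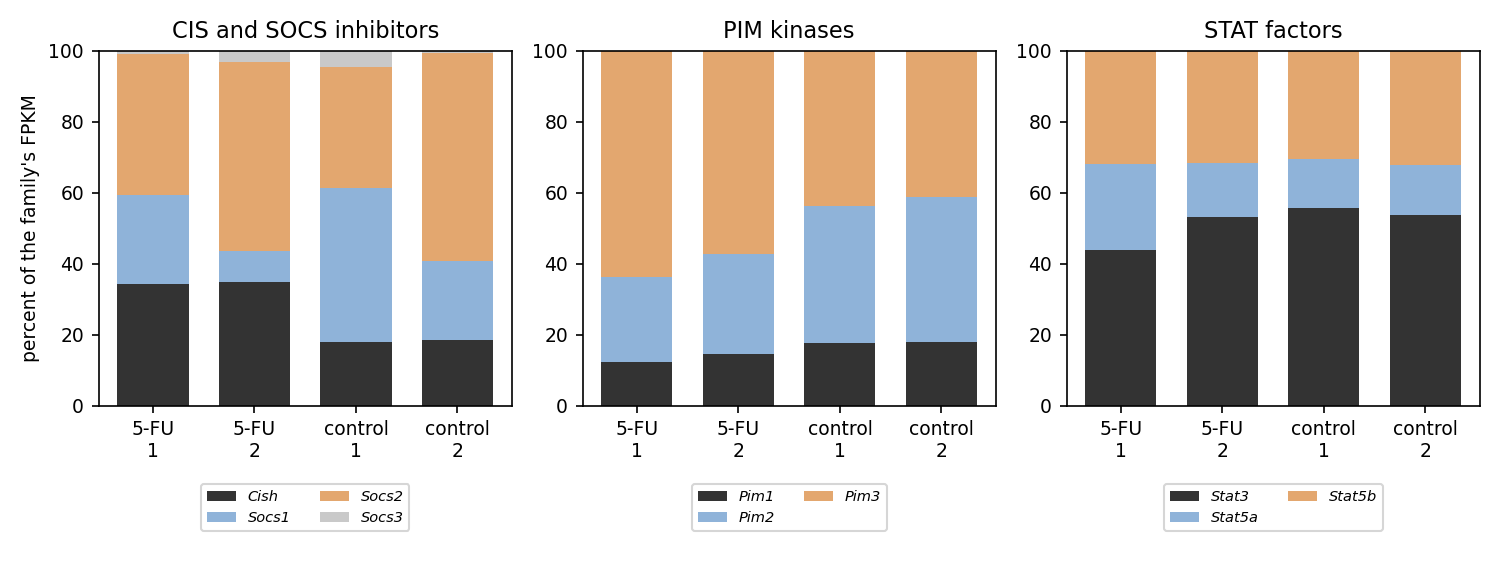
Share of each gene in the summed FPKM of its family (vertical axis, percent, from 0 to 100) in each of the 4 libraries, 5-FU recipients on the left. Cish takes 34.2% and 34.8% in 5-FU libraries and 18.0% and 18.4% in control libraries, and Pim3 63.7% and 57.3% in 5-FU libraries and 43.9% and 41.2% in control libraries.

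The STAT genes lie together on chromosome 11, Stat5b at 100780731 to 100850724, Stat5a at 100859351 to 100885169 and Stat3 at 100885098 to 100939540. None of the 3 passed the test. Stat3 had 25.3 and 22.3 FPKM in 5-FU recipients 1 and 2, against 31.0 and 34.3 FPKM in control recipients 1 and 2. Both 5-FU libraries lay below both control libraries, and the log2 fold change was -0.44 (SE 0.20, 95% interval -0.92 to 0.03, adjusted p = 0.18). Over the same libraries the 17 macrophage markers had a median log2 fold change of -0.97, with none higher, 4 lower and 13 not past the threshold. Of all tested genes, 4.67% were called lower. An unadjusted p under 0.05 in limma was reached by 12 of the 17, all lower, against 31.4% of all tested genes. The part of macrophage content in the Stat3 values was not tested. Roughly 700 to 860 reads stood behind each Stat3 value, more than behind most other members.

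Stat5a and Stat5b encode near-identical STAT5 proteins that act downstream of the same receptors. Stat5b had 18.5 and 13.2 FPKM in 5-FU recipients, against 17.0 and 20.6 FPKM in control recipients. The groups overlapped, and the log2 fold change of Stat5b was -0.24 (95% interval -0.83 to 0.35, adjusted p = 0.55). Omitting 5-FU replicate 1 gave -0.47 for Stat5b, and omitting 5-FU replicate 2 gave -0.02. Stat5a had 14.1 and 6.45 FPKM in 5-FU recipients, against 7.70 and 9.08 FPKM in control recipients. The 5-FU libraries were the highest and the lowest of the 4, 2.18 times apart. The log2 fold change of Stat5a was 0.18 (95% interval -0.66 to 1.02, adjusted p = 0.77). It was -0.33 with 5-FU replicate 1 left out and 0.69 with 5-FU replicate 2 left out. The ratio of Stat5a to Stat5b was 0.760 and 0.488 in 5-FU recipients, against 0.453 and 0.440 in control recipients. Of the 75-base stretches in its GENCODE transcripts, 5.12% for Stat5a and 6.99% for Stat5b also occur in the other gene, so part of their reads can be assigned to either. Stat5a and Stat3 overlap by 72 exonic bases on opposite strands.

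Ratios of Cish to other members reuse the Cish values given above, so their separation is no further evidence. They too were chosen after the values were seen. The ratio of Cish to the sum of Stat5a and Stat5b was 0.298 and 0.472 in 5-FU recipients 1 and 2, against 0.140 and 0.127 in control recipients 1 and 2. The ratio of Cish to Socs2 was 0.861 and 0.656 in 5-FU recipients, against 0.529 and 0.315 in control recipients. Whether the fold change of Cish differs from that of Socs2 was not tested.

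Over the members together, 1 of 9 tested genes was higher, none was lower and 8 did not pass. Of all 11496 genes tested, 8.23% were called higher and 4.67% lower in limma, so 1 of 9 members is close to the background. At an unadjusted p under 0.05 the count was also 1 of 9 members, Cish, against 3607 of all 11496 genes (31.4%). The median log2 fold change was -0.24 over the 9 tested members, against -0.01 over all tested genes, with a range of -0.46 to 1.18 among the members. The 5-FU libraries lay above both control libraries for 2 of the 9 (Cish and Pim3) and below both for 3 (Pim1, Pim2 and Stat3). Over all tested genes 31.4% lay above and 30.7% below in that way.

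**Figure D3:**
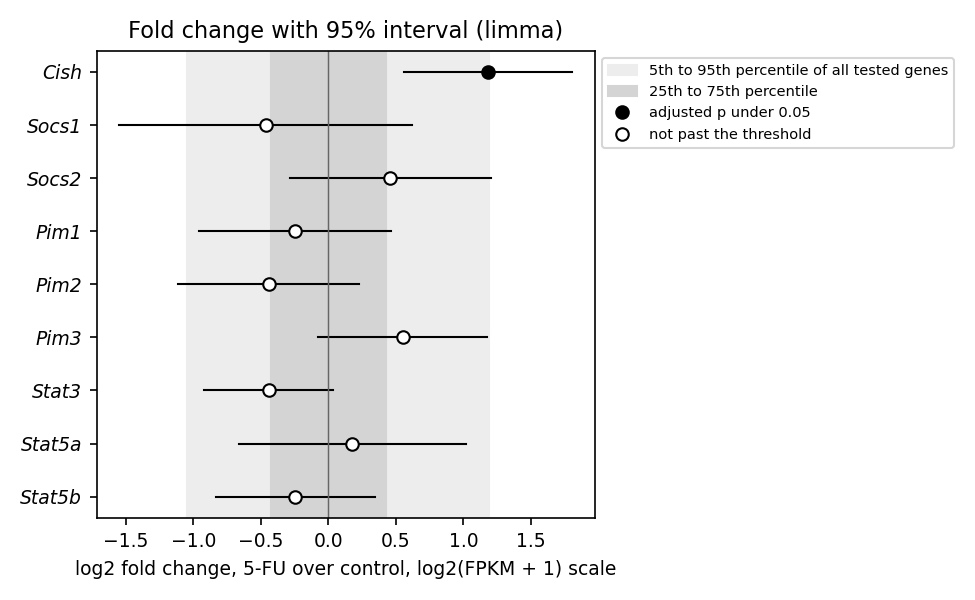
Log2 fold change (horizontal axis, 5-FU over control, on the log2(FPKM + 1) scale) with its 95% limma interval for the 9 tested members, over the spread of all tested genes in grey. Cish, at 1.18 with an interval of 0.56 to 1.80, is the filled point, and the intervals of the other 8 members include 0.

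The rest of the pathway was read from lists of textbook genes. Over all tested genes, 8.23% were called higher and 4.67% lower, and 31.4% had an unadjusted p under 0.05 in limma. Among 8 JAK kinases and other STATs, Jak1, the kinase shared by interferon and interleukin-6 family receptors, fell and 7 did not pass. An unadjusted p under 0.05 in limma was reached by 2 of the 8, both lower. Jak1 had 56.3 and 54.7 FPKM in 5-FU recipients, against 88.6 and 90.3 FPKM in control recipients (log2 fold change -0.68, SE 0.18, adjusted p = 0.049). The adjusted p of Jak1 was 0.053 with a pseudocount of 0.1 and 0.10 with no trend. That list's median was -0.41, and -0.01 without 5-FU replicate 2. Among 24 tested receptors that signal through JAKs, 4 fell, none rose and 20 did not pass, with a median of -0.60. Il13ra1, a receptor chain for interleukin-4 and interleukin-13, had 8.98 and 4.73 FPKM in 5-FU recipients, against 19.7 and 23.0 FPKM in control recipients. Il10ra, the interleukin-10 receptor, had 28.2 and 28.8 FPKM in 5-FU recipients, against 60.7 and 62.0 FPKM in control recipients. The others were the interferon receptor chain genes Ifngr1 (log2 fold change -0.92, adjusted p = 0.024) and Ifnar1 (-0.86, adjusted p = 0.046). Of the 24 receptors, 11 reached an unadjusted p under 0.05 in limma, 10 of them lower and 1 higher. The macrophage sum given above was lower in both 5-FU libraries, and its part in these receptor values was not tested.

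Of the further inhibitors and the SOCS degradation machinery, 1 gene passed. Of 17 other inhibitors of the pathway, Ptprc (CD45, a phosphatase that acts on JAKs) fell, none rose and 16 did not pass, with a median of -0.17. Of all tested genes, 4.67% were called lower. An unadjusted p under 0.05 in limma was reached by 2 of the 17, 1 in each direction. Ptprc had 77.9 and 68.4 FPKM in 5-FU recipients, against 130.8 and 130.1 FPKM in control recipients (adjusted p = 0.030). The remaining SOCS family genes, Socs4 to Socs7, did not pass. SOCS proteins join elongins and a cullin into a ubiquitin ligase, and none of the 6 genes of that core passed in limma, although all 6 fold changes were positive with a median of 0.46. At an unadjusted p under 0.05 the count was 2 of the 6, near the 31.4% of all tested genes. Tceb1, which encodes elongin C, had 113.0 and 149.9 FPKM in 5-FU recipients, against 73.9 and 81.0 FPKM in control recipients (log2 fold change 0.74, adjusted p = 0.057). It passed without 5-FU replicate 1 (adjusted p = 0.0018) and with a filter of 5 FPKM (adjusted p = 0.049). Its adjusted p was 0.39 without control replicate 1, 0.32 without control replicate 2, 0.13 with no filter and 0.11 with no trend.

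Of 14 other genes known as STAT5 targets, 4 rose, 1 fell and 9 did not pass, with a median of 0.41. Over all tested genes, 8.23% were called higher and 4.67% lower. An unadjusted p under 0.05 in limma was reached by 9 of the 14, 7 higher and 2 lower, against 31.4% of all tested genes. Myc, the growth regulator, had 135.8 and 214.5 FPKM in 5-FU recipients, against 66.2 and 62.4 FPKM in control recipients (adjusted p = 0.017). Ccnd1, cyclin D1, had 16.4 and 27.4 FPKM in 5-FU recipients, against 8.56 and 7.15 FPKM in control recipients (adjusted p = 0.030). Cdkn1a, the cell cycle inhibitor p21, rose by 3.84 on the log2 scale and is better known as a p53 target. Ccnd3, cyclin D3, rose by 0.89 and was picked out after its value was seen. Tfrc, the transferrin receptor, fell by 1.58, and its level is high in erythroid cells, of whose 9 markers 7 fell, with sums of 72.5 and 111.3 FPKM in 5-FU recipients, against 1271 and 1783 FPKM in control recipients. The part of erythroid content in the Tfrc values was not tested. Bcl2l1, which encodes the survival protein BCL-XL, had 47.9 and 35.2 FPKM in 5-FU recipients, against 24.3 and 27.3 FPKM in control recipients, and did not pass (adjusted p = 0.094, picked out after its value was seen).

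Of 14 other STAT3 targets, 1 rose, 2 fell and 11 did not pass, with a median of -0.41. Over all tested genes, 8.23% were called higher and 4.67% lower. An unadjusted p under 0.05 in limma was reached by 7 of the 14, 2 higher and 5 lower, against 31.4% of all tested genes. Lcn2, lipocalin 2 of neutrophil granules, fell by 2.39 on the log2 scale and Junb, an AP-1 factor, by 0.79. Over the same groups 8 of 11 neutrophil markers, Lcn2 among them, and 11 of 19 handling genes, Junb among them, were lower. The handling count was 2 of 19 without control replicate 1 and likewise without control replicate 2, and the adjusted p of Junb was then 0.25 and 0.34. Birc5, survivin, rose by 1.95 and is also a gene of mitosis. Of 13 PIM kinase substrates, 3 rose, none fell and 10 did not pass, with a median of 0.41. These were Cdkn1a and Myc, already counted above, and Cdc25c, a phosphatase of mitotic entry. Cdc25c had 12.5 and 11.5 FPKM in 5-FU recipients, against 1.50 and 3.32 FPKM in control recipients. Of the 13 substrates, 6 reached an unadjusted p under 0.05 in limma, 5 higher and 1 lower.

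The number of these pathway genes that passed depended on the filter and on which library was left out. With 1 library left in a group, the spread within groups is read from the other group alone. Such fits therefore do not show an effect of the omitted library by itself. The number passing shifted over all tested genes too (counts given at the end), so such shifts are not particular to these lists. With no filter on low values, none of the genes in the 7 further lists passed in limma. Without control replicate 1 or 2, none of the receptors, JAK kinases and other STATs, or other inhibitors passed. Of the STAT5 targets 2 rose without control replicate 1 and 1 without control replicate 2, and none fell in either case. Of the STAT3 targets 1 rose and 1 fell in each of these fits, and 1 and 2 PIM substrates rose without control replicates 1 and 2. Without 5-FU replicate 1 more genes passed, with 13 receptors, 5 JAK and STAT genes and 3 other inhibitors lower, and 4 genes of the ligase core and 6 PIM substrates higher. In that fit 5 STAT5 targets rose and 3 fell, and 6 STAT3 targets fell. Without 5-FU replicate 2, 6 STAT5 targets and 4 PIM substrates rose and 6 receptors fell. The count of macrophage markers that fell was 16 without 5-FU replicate 1, 6 without 5-FU replicate 2, and 0 without control replicate 1 or 2.

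**Figure D4:**
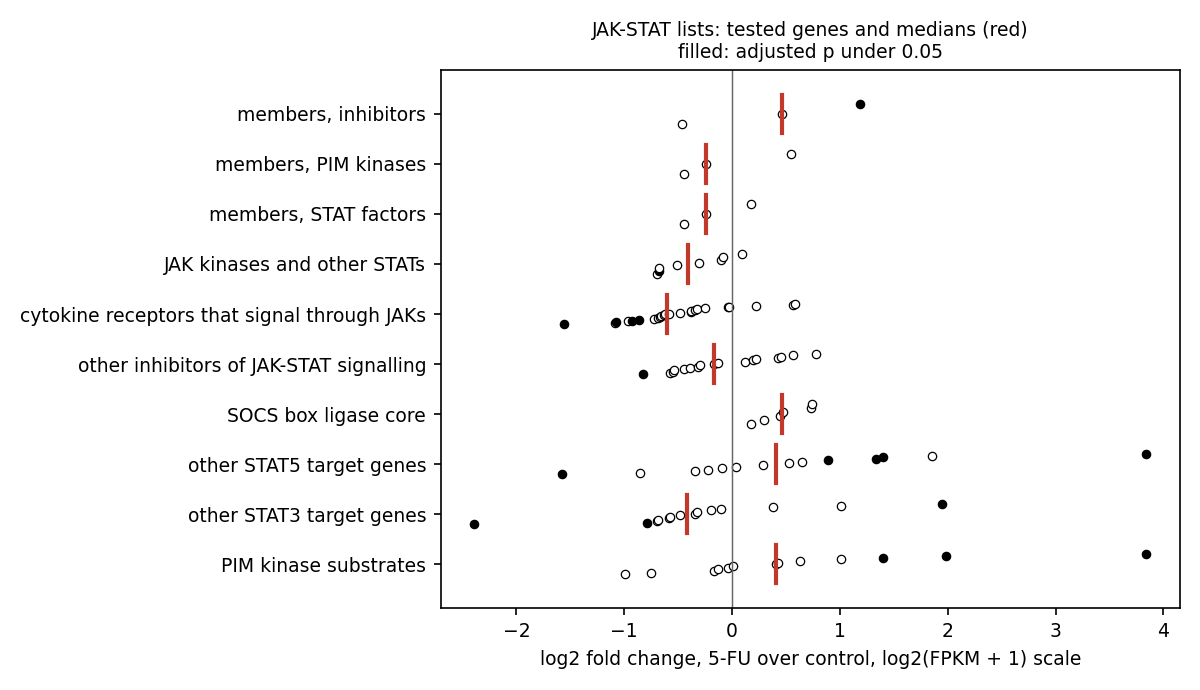
Log2 fold change (horizontal axis, 5-FU over control, on the log2(FPKM + 1) scale) of each tested gene in the 3 member families and 7 further lists, with list medians in red and genes past the adjusted threshold filled. The median is -0.60 for the receptors and 0.41 for the other STAT5 targets, and Cish is the filled point among the member families.

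Markers of cells other than progenitors were set beside the Cish values, since lymphoid cells express Cish too. Over all tested genes, 8.23% were called higher and 4.67% lower. Of the T cell receptor complex genes, Cd3e was listed at 0 in both 5-FU libraries and in control recipient 1 and had 0.306 FPKM in control recipient 2. Cd3d and Cd3g were at most 0.0950 and 1.05 FPKM in 5-FU libraries. Nkg7, a granule gene of NK and T cells, had 184.3 and 313.7 FPKM in 5-FU recipients, against 108.9 and 91.1 FPKM in control recipients (adjusted p = 0.028). The 9 T and NK markers found summed to 189.8 and 318.9 FPKM in 5-FU recipients, against 111.2 and 97.0 FPKM in control recipients. Nkg7 thus made up most of that sum in each library. Cd3d, Cd3e, Gzma and Prf1 did not reach the filter and were not tested. Of the 5 tested T and NK markers, Nkg7 was the 1 that rose. None of the 5 passed without control replicate 1 or 2. Basophil and mast cell markers were highest in control recipient 1, and none of the 7 tested passed in limma (1 at an unadjusted p under 0.05). Of 8 tested B cell markers 5 fell, and their summed level over 9 markers was 200.6 and 158.5 FPKM in 5-FU recipients, against 365.3 and 371.6 FPKM in control recipients. The count of B cell markers that fell was 8 without 5-FU replicate 1, 2 without control replicate 1 and 0 without control replicate 2. Of 14 tested stem and progenitor markers Ly6a rose and 13 did not pass, with a median of 0.20. That median was -0.20 without 5-FU replicate 2, and 3 of these markers rose without 5-FU replicate 1 and none without control replicate 1 or 2. Of 9 tested erythroid markers 7 fell, with the sums given above beside Tfrc. The part of these cell types in the Cish difference was not tested.

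The fold change of Cish under the other settings was 0.75 to 1.37, and it passed the threshold with each pseudocount, scaling and variance setting tried.

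**Figure D5:**
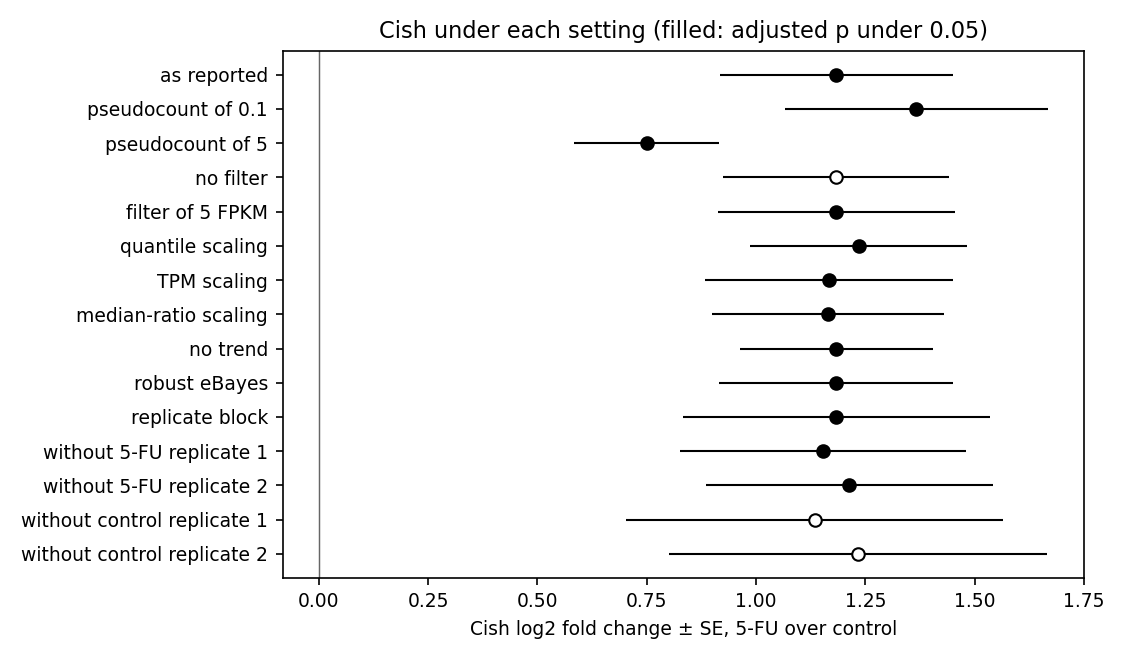
Log2 fold change of Cish with its standard error (horizontal axis, 5-FU over control) under each setting, filled where the adjusted p was under 0.05. The value stays between 0.75 and 1.37, and the open points are the fits with no filter and without control replicate 1 or 2.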

How the data were processed

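RNA from EGFP+ cells of 4 recipients was made into SMART-Seq Ultra Low Input libraries, per the labels' protocols, with single-end reads of 75 bp. Per the submitters' processing notes the authors used TopHat2 2.0.13, Bowtie2 2.2.3, SAMtools 0.1.19 and Cuffnorm 2.2.1 with mm10, and the deposited values are FPKM. The annotation, Cuffnorm's scaling setting and the use of strand were not given in the sources used here. Day numbers in the 5-FU column headers and file names differ, so groups follow the labels.

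FPKM were used as deposited. On log2(FPKM + 1), limma 3.58.1 in R 4.3.3 (eBayes with trend, two-sided) tested the 11496 genes that reached 1 FPKM in 2 or more libraries. P-values were adjusted by the Benjamini-Hochberg method, with a threshold of 0.05. There were 2 residual and 5.62 prior degrees of freedom. The spread tested is that between recipients. The code was tested on simulated data. Read numbers are rough: the worth of a read was taken from ratios between values under 0.3 FPKM, matched within 1%, and from GENCODE lengths, over 108 genes. Alternatives covered the pseudocount, filter, scaling, variance model, replicate block and each library left out.

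The members and lists were chosen with earlier results of these data known. All members are named, and of each further list up to 4 genes past the threshold by smallest p, or else the 1 of smallest p. Figures used matplotlib 3.10.9.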

Additional observations from a re-analysis of the deposited data

How the results depend on the processing

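Cish was called in 8 of the 9 fits with another pseudocount, filter, scaling or variance model, and with no filter the count of members called higher was 0 (2 members, Cish and Stat3, at an unadjusted p under 0.05). Leaving out 1 library gave 0 to 1 members called higher and 0 lower. With 1 library left out, Socs1 ran between -1.10 and 0.18 (positive without 5-FU replicate 2) and Stat5a between -0.33 and 0.69 (negative without 5-FU replicate 1). The sign turned for no other member under the settings run. Of all genes, 946 were called higher and 537 lower, against 3 and 4 with no filter, 548 and 299 without a trend, and 88 to 2122 and 38 to 1876 with 1 library left out, where the lone library is assumed to vary like the other group. The cause of these shifts was not tested. Same-numbered libraries deviated from their group means with r = -0.159 across genes. From 4 libraries this value cannot settle whether the numbers pair the samples. With the replicate block Cish kept an adjusted p of 0.038 and 855 genes were called higher and 539 lower. The crossed pairing, added after seeing the data, gave 1686 and 1365. Of the 14 other genes named as called by the rule, 14 lost the call with no filter, 6 with no trend (Jak1, Ifngr1, Ifnar1, Ptprc, Ccnd1 and Junb), 5 with the block (the same without Ccnd1), 1 with a pseudocount of 0.1 (Jak1), 11 without control replicate 1 and 10 without control replicate 2. With 2 recipients per group, standard errors of the tested members were 0.20 to 0.47 on the log2 scale.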

Other observations

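Among the pathway genes that differed more between the 5-FU recipients than between the groups, Tyk2 and Socs6 are given here as values. This pair was picked out after the values were seen, and Jak3 and Il21r also differed in that way. Tyk2, a JAK kinase of interferon receptors, had 9.20 and 3.29 FPKM in 5-FU recipients 1 and 2, against 4.59 and 7.84 FPKM in control recipients 1 and 2. Socs6, an inhibitor related to the SOCS members, had 23.2 and 9.82 FPKM in 5-FU recipients, against 12.7 and 15.2 FPKM in control recipients. In both genes, as in Stat5a and Socs1, 5-FU recipient 1 was above 5-FU recipient 2. The macrophage sum, too, was lower in 5-FU recipient 2 than in 5-FU recipient 1. Its part in the values of these genes was not tested. Neither Tyk2 nor Socs6 passed the test between groups. Elongin genes ran the other way, with Tceb2 at 506.5 and 648.7 FPKM in 5-FU recipients, against 374.1 and 316.1 FPKM in control recipients.

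Id1, a target of BMP and of STAT5 signalling, had 13.3 and 6.09 FPKM in 5-FU recipients, against 3.52 and 0.713 FPKM in control recipients, and did not pass (log2 fold change 1.86, adjusted p = 0.057). Vegfa, which encodes an angiogenic factor and is a STAT3 and hypoxia target, had 3.38 and 3.71 FPKM in 5-FU recipients, against 0.952 and 1.62 FPKM in control recipients (adjusted p = 0.076). Both were chosen with these values in view.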
